A study of Mus musculus with 4 samples.

Results

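Genes of the lysosome, of autophagy and of mitophagy were followed in N9, an immortalised microglial cell line from mouse, exposed to nimodipine. Nimodipine is a dihydropyridine blocker of L-type calcium channels. The list named 37 genes by symbol, and a gene was taken where an array probe set carried that single symbol. This gave 35 of the 22180 genes measured, each by 1 probe set. Bnip3l shared its probe set with another symbol, and Optn had no probe set under its symbol in the annotation used, so both were not analysed here. The cells had received vehicle on 2 arrays, nimodipine at 10 µM on 1 array and nimodipine at 20 µM on 1 array, all in the same serum-containing medium. No genetic change or second agent is named in the labels, the time of exposure is not given in the sources used here, and the labels tie no vehicle array to a dose. Since they name no separate cultures either, the p-values reflect spread between arrays that may be technical replicates. Each dose has no replicate. In bulk RNA, fewer cells with a transcript and less of it per cell cannot be told apart.

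Lysosomes break down proteins, lipids and glycans with acid hydrolases, in a lumen that a proton pump, the V-ATPase, keeps acidic. In autophagy, a kinase complex and a lipid kinase complex start a membrane onto which ubiquitin-like proteins of the LC3 and GABARAP family are joined, and cargo receptors tie the load to that membrane before it fuses with a lysosome. Mitophagy is the same route for damaged or surplus mitochondria, and microglia rely on all of these steps when they clear debris.

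Values are log2 expression after RMA, in which quantile normalization sets the arrays to a common distribution. They lie on a scale where a difference of 1 is a change of 2-fold. The mean of each of the 35 genes exceeded 5.04, the median over all probe sets, with Tfeb nearest to it. Array medians lay between 5.02 and 5.06. Of 12 microglial marker genes, 9 lay above 5.04 on every array, among them Csf1r and Tyrobp. Adgre1, Tmem119 and P2ry12, which also mark microglia in the brain, lay below it on every array. The same line was passed on every array by 3 of 4 oligodendrocyte markers and by 2 of 5 each of astrocytes, neurons, and fibroblasts and endothelium, so passing it does not mark a cell type. Among these were Mbp and Pdgfra, with vehicle means of 7.69 and 6.79. The probe sets carry no detection call, and levels of different genes are not compared here, since probes differ in their response.

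The median of the list lay close to vehicle at both doses, and 2 of its genes stood apart at 10 µM. Sqstm1, the gene of the cargo receptor p62, was 2.84-fold higher at 10 µM than in vehicle, and Bnip3, a mitophagy receptor of the outer mitochondrial membrane, was 2.93-fold lower. The median difference from the vehicle mean over the 35 genes was 0.02 at 10 µM and -0.03 at 20 µM on the log2 scale, beside 0.01 and 0.00 over all genes. At 10 µM 18 were higher and 17 lower, and at 20 µM 13 were higher and 22 lower. The median size of a difference, with its sign dropped, was 0.14 at 10 µM and 0.10 at 20 µM for these genes, beside 0.17 and 0.13 for all genes. Between the vehicle arrays the median size was 0.07 for these genes and 0.13 for all genes. Against the first or second vehicle array alone, it was 0.149 or 0.144 at 10 µM and 0.106 or 0.108 at 20 µM for these genes. Over all genes it was 0.181 or 0.189 at 10 µM and 0.147 or 0.143 at 20 µM. By this measure, too, both sets lay farther from a vehicle array than the vehicle arrays lay from each other.

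**Figure D1:**
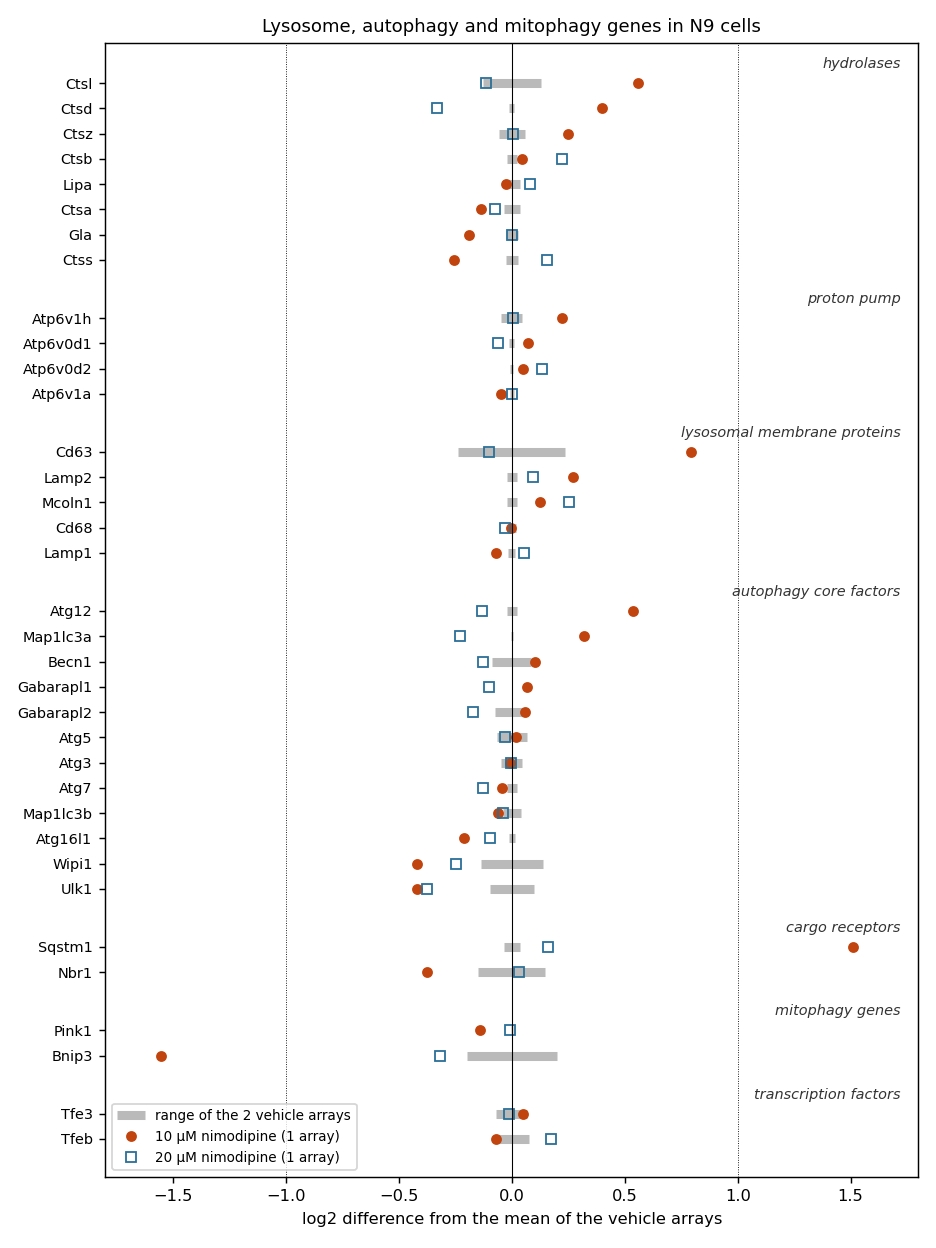
Log2 difference of each of the 35 genes from the mean of the vehicle arrays (x axis) at 10 µM (filled circles) and 20 µM (open squares), grouped by role down the page; grey bars span the 2 vehicle arrays and dotted lines mark a difference of 1. Sqstm1 at 1.51 and Bnip3 at -1.55 are the points beyond the dotted lines, both at 10 µM.

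By a difference of 1 or more on the log2 scale, 1 gene of the list was higher at 10 µM, beside 0.514% of all genes, and 1 was lower, beside 1.06%. At 20 µM 0 of the 35 passed this size, beside 0.0857% of all genes. At a smaller size of 0.5, 4 were higher at 10 µM (Sqstm1, Cd63, Ctsl and Atg12; 3.92% of all genes) and 1 was lower (Bnip3; 6.18%). At 20 µM 0 of the 35 reached 0.5, beside 2.74% of all genes, and 0 did so between the vehicle arrays, beside 3.58%. The vehicle arrays were set against each other, whereas each dose was set against a mean of 2 arrays.

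With both nimodipine arrays taken as 1 group, limma called 0 of the 35 genes after Benjamini-Hochberg adjustment, as it did for 0% of all 22180 genes. The adjusted p-values of the list ran from 0.792 to 0.998. At an unadjusted p under 0.05 there was 1 gene, Ulk1, beside 5.37% of all genes. For 5 of the 35 the nimodipine values were both above the vehicle pair (19.2% of all genes), and for 7 both were below it (18.2%), near the shares over all genes. For 8 the doses fell on opposite sides of that pair, beside 18.9% of all genes.

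In a fit of 3 groups, limma called 2 of the 35 at 10 µM against vehicle, Sqstm1 (adjusted p = 0.0197) and Bnip3 (adjusted p = 0.0342), beside 1.59% of all genes. That fit takes the spread of vehicle pairs for the single arrays as well and has 1 residual degree of freedom. In it, limma pulls each gene's spread toward a value pooled over all genes, so a gene's own vehicle pair sets only part of it. At 20 µM it called 0 of the 35 and 0% of all genes. At an unadjusted p under 0.05 there were 7 of the 35 at 10 µM, beside 3749 of 22180 genes, and 0 of the 35 at 20 µM, beside 1418.

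Cargo receptors bind ubiquitin on their load and LC3 on the growing membrane. Sqstm1 stood at 10.43 and 10.36 on the vehicle arrays, 11.90 with 10 µM and 10.56 with 20 µM. Both doses lay above both vehicle arrays, the lower dose by far more than the 0.07 between those arrays. The difference from the vehicle mean was 1.51 at 10 µM and 0.16 at 20 µM. Against either vehicle array alone it was 1.47 or 1.54 at 10 µM. With the doses together it was 0.83 ± 0.41 (limma SE, 2 arrays per group; adjusted p = 0.792). Nbr1, a second cargo receptor, stood at 9.84 and 9.54 on the vehicle arrays, 9.31 with 10 µM and 9.72 with 20 µM. It was thus below both vehicle arrays at 10 µM, the side opposite to Sqstm1, and between them at 20 µM.

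The 300 bases around the Sqstm1 start site are shown because this gene had the largest rise of the list. They lie at chr11:50210771-50211070 (minus strand) of GRCm38.p6 in the RefSeq promoter table, from 250 bases before the start site to 50 after it, and are given 5′ to 3′ on the gene's strand. All windows were searched on both strands for the E-box CACGTG, the CLEAR core TCACGTGA, the C/EBP-ATF element TGATGNAA and the antioxidant core TGACNNNGC. The hypoxia cores ACGTG and GCGTG were searched too. None of these letters occurs in the Sqstm1 window, so no base is in capitals. Elements farther from the start site were not searched.
Sqstm1: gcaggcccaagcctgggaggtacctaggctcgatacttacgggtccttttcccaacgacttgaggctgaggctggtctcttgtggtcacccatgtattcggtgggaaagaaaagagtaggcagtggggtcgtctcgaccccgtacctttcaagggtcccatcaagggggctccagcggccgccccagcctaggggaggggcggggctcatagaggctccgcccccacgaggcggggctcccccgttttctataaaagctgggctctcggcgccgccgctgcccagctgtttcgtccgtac

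Of the mitophagy genes, Bnip3 and Pink1 were measured. Bnip3 stood at 10.82 and 10.42 on the vehicle arrays, 9.07 with 10 µM and 10.30 with 20 µM. Both doses were below both vehicle arrays, but at 20 µM the difference from the nearer vehicle array was -0.12, smaller than the -0.40 between the vehicle arrays. The difference from the vehicle mean was -1.55 at 10 µM and -0.32 at 20 µM. Against a single vehicle array it was -1.75 or -1.35 at 10 µM. With the doses together it was -0.94 ± 0.39 (limma SE; adjusted p = 0.792). Pink1, the kinase that marks depolarised mitochondria for removal, stood at 7.49 and 7.48 on the vehicle arrays, 7.34 with 10 µM and 7.47 with 20 µM, so its differences were -0.14 and -0.01.

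The Bnip3 window is shown as the counterpart with the largest fall. It lies at chr7:138909457-138909756 (minus strand) of GRCm38.p6 and spans the same distances from the start site. Capitals mark CACGTG, which begins 108 bases before the start site, and GCGTG on either strand, found at 117, 99 and 35 bases before it. GCGTG, and ACGTG, which is part of CACGTG, are the core letters that hypoxia-inducible factors bind. Such short letters are common: GCGTG occurred in 35.2% and ACGTG in 21.8% of all genes with a window, and in 50% and 53.6% of the list. In mice and humans Bnip3 is a known target of these factors, and whether they had a part in its fall was not tested.
Bnip3: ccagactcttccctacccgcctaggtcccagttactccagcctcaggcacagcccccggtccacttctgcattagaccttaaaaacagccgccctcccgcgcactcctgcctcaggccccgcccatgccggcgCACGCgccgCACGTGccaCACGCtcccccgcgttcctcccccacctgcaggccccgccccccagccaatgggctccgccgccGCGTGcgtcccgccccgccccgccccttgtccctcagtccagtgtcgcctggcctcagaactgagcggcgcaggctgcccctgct

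Between the doses, the 20 µM array was 1.35 below the 10 µM array for Sqstm1 and 1.24 above it for Bnip3. These 2 of the 35 genes differed by 1 or more between the doses, beside 1.64% of all genes. In the fit of 3 groups the contrast of 20 µM with 10 µM, chosen after seeing the data, called 0 of the 35, beside 0.316% of all genes; its limma adjusted p-values were 0.0540 for Sqstm1 and 0.110 for Bnip3. This contrast sets 1 array against 1 array and takes its spread from vehicle pairs, the gene's own and those of all genes. Whether the response differs between the doses is thus not settled by it.

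**Figure D2:**
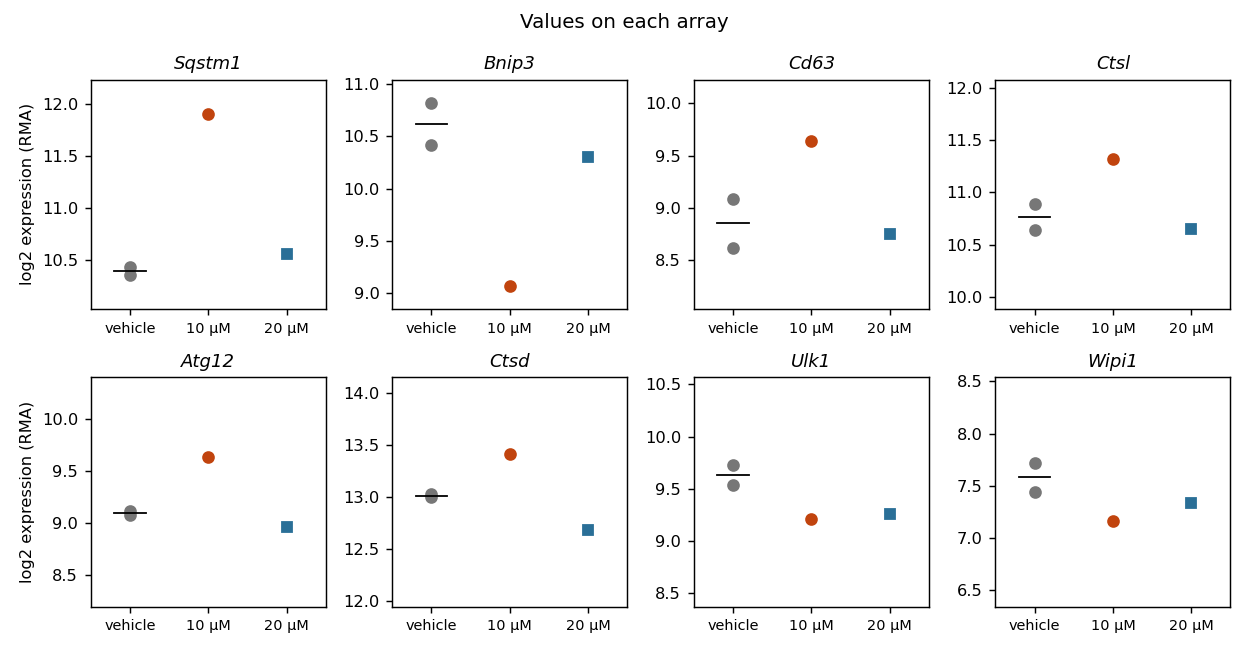
Log2 expression (y axis, the same length of scale in each panel) of 8 genes on each array at vehicle, 10 µM and 20 µM nimodipine (x axis); points are single arrays and the line is the vehicle mean. Sqstm1 and Bnip3 leave the vehicle arrays at 10 µM and lie near them at 20 µM, Ctsd lies on opposite sides at the 2 doses, and Ulk1 and Wipi1 are below vehicle at both.

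The 8 hydrolases were split, with 4 higher and 4 lower than the vehicle mean at each dose and medians of 0.01 at 10 µM and 0.00 at 20 µM. Ctsl, the gene of the cysteine protease cathepsin L, stood at 10.89 and 10.64 on the vehicle arrays, 11.32 with 10 µM and 10.65 with 20 µM. It was above both vehicle arrays at 10 µM only, by 0.56 from their mean, where the vehicle arrays differed by 0.25. Ctsd, the gene of the aspartic protease cathepsin D, stood at 13.02 and 13.00 on the vehicle arrays, 13.41 with 10 µM and 12.68 with 20 µM. The doses thus lay on opposite sides of a narrow vehicle pair, at 0.40 and -0.33. Ctss, the gene of cathepsin S, a protease that works also at neutral pH and trims the invariant chain, went the other way, with -0.26 at 10 µM and 0.16 at 20 µM.

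Among the other hydrolases, Ctsz, an exopeptidase, differed by 0.25 at 10 µM and 0.01 at 20 µM. Ctsb, the gene of cathepsin B, was above both vehicle arrays at both doses, differing from their mean by 0.05 and 0.22. Ctsa, the gene of a carboxypeptidase that also protects neuraminidase and beta-galactosidase, was below both at both doses. It differed from their mean by -0.14 and -0.08. Gla, which encodes alpha-galactosidase A, differed by -0.19 and 0.00, and Lipa, the gene of the acid lipase that frees cholesterol from its esters, by -0.03 and 0.08. None of these differences was called in either fit; in the fit of 3 groups the lowest limma adjusted p among the 8 hydrolases at 10 µM was 0.186, for Ctsl.

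The 4 measured V-ATPase subunits differed by between -0.05 and 0.22 at 10 µM and between -0.06 and 0.13 at 20 µM. Atp6v1h, a regulatory subunit of the cytosolic sector, was the highest at 10 µM and differed by 0.00 at 20 µM. Atp6v1a, the catalytic subunit, stood at 11.56 and 11.58 on the vehicle arrays, 11.52 with 10 µM and 11.57 with 20 µM. The paralogous membrane-sector subunits Atp6v0d1 and Atp6v0d2 differed by 0.07 and 0.05 at 10 µM and by -0.06 and 0.13 at 20 µM. Atp6v0d2 is the form known from osteoclasts and macrophages.

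Of the 5 lysosomal membrane proteins, Cd63 had the largest difference. Cd63, a tetraspanin of late endosomes and exosomes, stood at 9.09 and 8.61 on the vehicle arrays, 9.64 with 10 µM and 8.75 with 20 µM. It was above both vehicle arrays at 10 µM, by 0.80 from their mean, and between them at 20 µM. Its vehicle arrays differed by 0.47, so the difference at 10 µM was 1.03 against the second vehicle array and 0.56 against the first. Its limma adjusted p in the fit of 3 groups was 0.166.

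Lamp1 and Lamp2, the most abundant glycoproteins of the lysosomal membrane, differed by -0.07 and 0.27 at 10 µM and by 0.06 and 0.10 at 20 µM. Mcoln1, the lysosomal calcium channel whose opening leads to activation of TFEB, was above both vehicle arrays at both doses. It differed from their mean by 0.13 and 0.25. Cd68, a macrophage glycoprotein much used as a marker of phagocytic microglia, stood at 13.51 and 13.55 on the vehicle arrays, 13.53 with 10 µM and 13.50 with 20 µM. Its differences of -0.01 and -0.03 were no larger than the 0.04 between the vehicle arrays.

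The 12 core autophagy factors had a median of 0.00 at 10 µM, 6 higher and 6 lower, and of -0.13 at 20 µM, where all 12 were lower than the vehicle mean. Over all genes, 11237 of 22180 were lower at 20 µM. The shifts at 20 µM were small: the lowest was -0.37 and the highest -0.01, and 0 of the 12 were called by limma. With cyclic loess 10 of the 12 were lower, and against the first vehicle array alone 9 were; this count was chosen after seeing the data. Atg12, the ubiquitin-like partner of Atg5, stood at 9.12 and 9.07 on the vehicle arrays, 9.63 with 10 µM and 8.96 with 20 µM, above both vehicle arrays at the lower dose and below both at the higher one. Its difference at 10 µM was 0.54 (limma adjusted p = 0.153 in the fit of 3 groups).

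Ulk1, the kinase that starts autophagy, stood at 9.73 and 9.53 on the vehicle arrays, 9.21 with 10 µM and 9.25 with 20 µM. It lay below both vehicle arrays by a like amount at both doses, -0.42 and -0.37, and the vehicle arrays differed by 0.19. With the doses together the difference was -0.40 ± 0.14 (limma SE; unadjusted p = 0.0264, adjusted p = 0.792). Wipi1, which binds the lipid made at the forming membrane, stood at 7.72 and 7.44 on the vehicle arrays, 7.16 with 10 µM and 7.33 with 20 µM. It too was below both at both doses, but the vehicle arrays differed by 0.28, and its adjusted p was 0.792. Atg16l1, part of the complex that joins LC3 to the membrane, differed by -0.21 and -0.10, below both vehicle arrays at both doses.

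Transcripts of the LC3 and GABARAP family differed among themselves. Map1lc3b, the LC3 form used most as a marker of autophagosomes, differed by -0.06 at 10 µM and -0.04 at 20 µM. Map1lc3a stood at 6.49 and 6.48 on the vehicle arrays, 6.81 with 10 µM and 6.26 with 20 µM, on opposite sides of the vehicle pair, at 0.32 and -0.23. It had the largest differences of these 4 genes. Gabarapl1 differed by 0.07 and -0.10 and Gabarapl2 by 0.06 and -0.17. The enzymes of conjugation, Atg7 (the activating enzyme) and Atg3 (the conjugating enzyme for LC3), differed by -0.04 and -0.01 at 10 µM and by -0.13 and -0.01 at 20 µM. Atg5 differed by 0.02 and -0.03, and Becn1, a subunit of the lipid kinase complex, by 0.10 and -0.13.

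**Figure D3:**
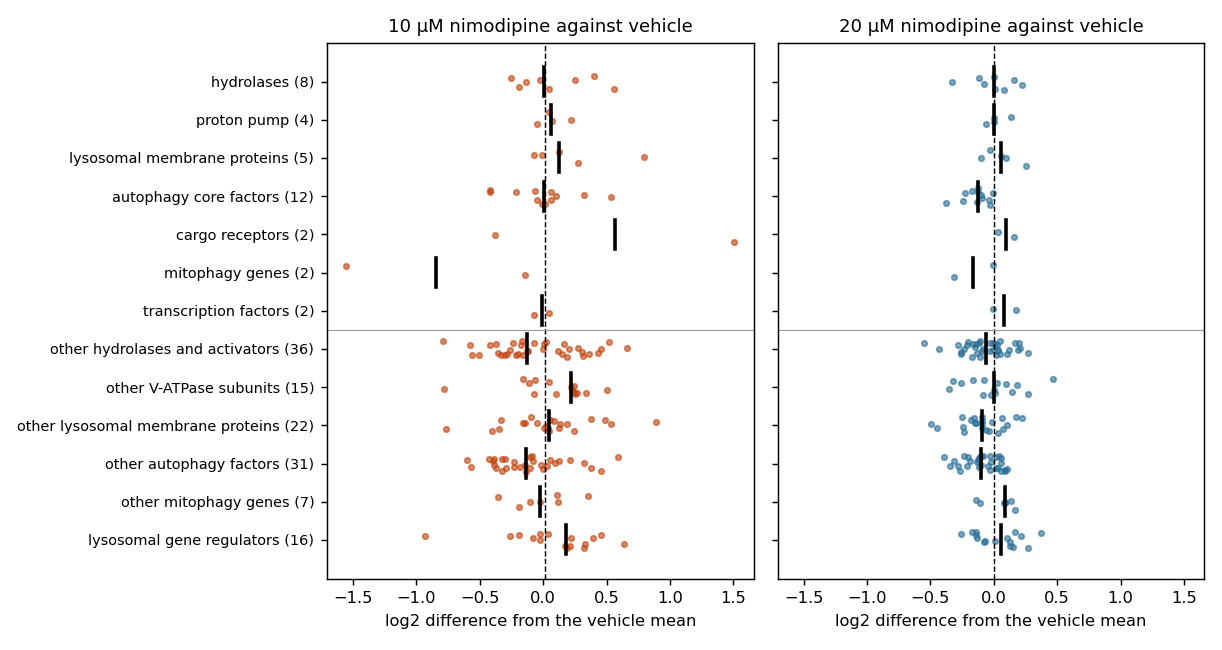
Log2 difference from the vehicle mean (x axis) at 10 µM (left) and 20 µM (right) for each role group of the list (above the grey line) and for other genes of the same pathways (below it), with the number of genes in brackets; points are genes, black bars are group medians and the dashed line is the median of all genes. The autophagy core factors lie left of zero at 20 µM, with a median of -0.13, and the other V-ATPase subunits have a median of 0.22 at 10 µM.

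TFEB and TFE3 are transcription factors that enter the nucleus when mTORC1 is off and switch on many lysosomal and autophagy genes together. Tfeb stood at 5.16 and 5.31 on the vehicle arrays, 5.17 with 10 µM and 5.41 with 20 µM. Tfe3 stood at 9.63 and 9.49 on the vehicle arrays, 9.61 with 10 µM and 9.55 with 20 µM. The difference from the vehicle mean was -0.07 and 0.17 for Tfeb and 0.05 and -0.01 for Tfe3, while the vehicle arrays differed by 0.15 and -0.14. The activity of both proteins is set largely by phosphorylation, which RNA levels do not show.

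The DNA element of these factors, called CLEAR, contains the letters TCACGTGA. Of the 35 genes, 28 had a RefSeq promoter window, and 7 of these 28 (25%) held TCACGTGA, beside 1.12% of the 27025 genes with a window. The shorter E-box CACGTG, which every CLEAR core contains, was found in 12 of the 28 (42.9%), beside 8.09% of genes. The C/EBP-ATF letters TGATGNAA occurred in 7.14% of the list and 4.51% of genes, and the antioxidant element core TGACNNNGC in 14.3% and 14%. ACGTG, which is also part of every E-box, occurred in 53.6% and 21.8%, and GCGTG in 50% and 35.2%. These are counts of letters and not of binding. The list was made of the kind of genes that TFEB and TFE3 switch on, so its higher share of CLEAR cores is no independent result.

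**Figure D4:**
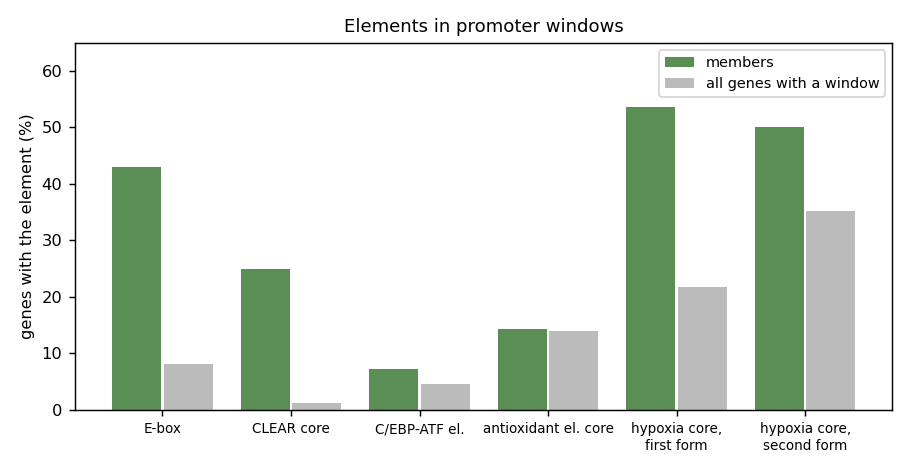
Share of genes (y axis, %) whose promoter window holds each element (x axis), for the 28 genes of the list with a window and for all 27025 genes with one. The CLEAR core is in 25% of the list and 1.12% of all genes, and the E-box in 42.9% and 8.09%.

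The windows of 21 genes lacked the CLEAR core. Cores are shown for each of the 7 genes that held it, whose transcripts lay on both sides of vehicle. Each is given 5′ to 3′ on the gene's strand with 20 bases on both sides, TCACGTGA in capitals; where a gene held several (Ctsa and Gla), the one nearest to its start site is centred. The positions in GRCm38.p6 are Ctsa at chr2:164833757-164833804 (plus strand), Ctsd at chr7:142387899-142387946 (minus strand), Gla at chrX:134601173-134601220 (minus strand), Atp6v0d1 at chr8:105566041-105566088 (minus strand), Atp6v1a at chr16:44139364-44139411 (minus strand), Mcoln1 at chr8:3500453-3500500 (plus strand) and Atg3 at chr16:45158737-45158784 (plus strand).
Ctsa: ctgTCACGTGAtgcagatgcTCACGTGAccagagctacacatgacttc
Ctsd: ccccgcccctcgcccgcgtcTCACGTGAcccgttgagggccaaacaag
Gla: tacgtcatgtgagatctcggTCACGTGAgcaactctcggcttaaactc
Atp6v0d1: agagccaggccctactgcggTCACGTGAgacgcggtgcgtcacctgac
Atp6v1a: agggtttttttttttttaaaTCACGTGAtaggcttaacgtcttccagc
Mcoln1: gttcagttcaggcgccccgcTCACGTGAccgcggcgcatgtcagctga
Atg3: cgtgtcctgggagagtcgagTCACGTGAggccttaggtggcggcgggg

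At 10 µM these 7 genes ranged from -0.19 (Gla) to 0.40 (Ctsd), with 3 higher and a median of -0.01. The 21 genes of the list whose window lacked the core had a median of -0.03. At 20 µM the 7 ranged from -0.33 (Ctsd) to 0.25 (Mcoln1), with a median of -0.01, and the other 21 had a median of -0.03. Ctsd and Mcoln1, both with the core, thus lay on different sides of vehicle at 20 µM.

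Of 136 further genes of these pathways, 127 were measured. Among them 0 differed by 1 or more at either dose, and 0 were called by limma for nimodipine against vehicle, where 7 of the 127 had an unadjusted p under 0.05, beside 5.37% of all genes. At 10 µM 7 were higher by 0.5 or more (3.92% of all genes) and 9 were lower (6.18%). These counts lie near the shares over all genes. The median size of a difference, with its sign dropped, was 0.22 at 10 µM and 0.12 at 20 µM for the 127, beside 0.17 and 0.13 for all genes. The 15 other V-ATPase subunits had a median of 0.22 at 10 µM, with 10 higher (11620 of 22180 over all genes), and of 0.00 at 20 µM. Atp6v0a2, a membrane-sector subunit, was the exception in size, at -0.78 and 0.00. Atp6v1c1 differed by 0.50, Atp6v0e2 by 0.34 and Atp6v1g1 by 0.27 at 10 µM. Against single vehicle arrays that of Atp6v1g1 was 0.40 and 0.14.

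The 36 other hydrolases and activators had medians of -0.13 and -0.06. The largest differences at 10 µM were those of Ctsh (-0.79), Ctsc (0.66), Acp5 (-0.58) and Sgsh (-0.56). For Acp5 the vehicle arrays differed by 0.45, and its difference was -0.36 against the first and -0.80 against the second. Ctsh, an aminopeptidase of the cathepsin family, was also below both vehicle arrays at 20 µM, differing from their mean by -0.43. The 22 other membrane proteins had medians of 0.04 and -0.09. Clcn7, the chloride-proton exchanger of lysosomes, stood at 8.39 and 8.52 on the vehicle arrays, 9.34 with 10 µM and 8.63 with 20 µM. It was above both vehicle arrays at both doses (limma adjusted p = 0.0574 at 10 µM in the fit of 3 groups). Tpcn1, a two-pore cation channel, differed by -0.76, Slc11a1, a metal transporter of phagosomes, by 0.53, and Npc1, a cholesterol exporter, by 0.49 at 10 µM.

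The 31 other autophagy factors had medians of -0.14 and -0.10, with 21 lower at each dose, beside 10556 of 22180 genes at 10 µM and 11237 at 20 µM. Wdr45 (-0.60), Rubcn (0.59), Pik3c3 (-0.57) and Vmp1 (0.45, with all 4 values below 5.04) differed most at 10 µM. Pik3c3 is the lipid kinase of autophagy, and Rubcn holds that kinase complex back. The 7 other mitophagy genes ran from -0.36 (Usp30) to 0.35 (Fkbp8) at 10 µM, with Mfn2 at -0.19 and Fundc1 at 0.11. Among 16 regulators of lysosomal genes, Mitf, a relative of Tfeb and Tfe3, stood at 10.20 and 10.06 on the vehicle arrays, 9.20 with 10 µM and 10.26 with 20 µM. It was the lowest of the 127 at 10 µM, by -0.93 (limma adjusted p = 0.0543 in the fit of 3 groups). Tfec, the fourth member of that family, differed by 0.64 at 10 µM, and Lamtor2 and Lamtor4, subunits of the complex that holds mTORC1 on lysosomes, by 0.46 and 0.39.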

How the data were processed

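RNA from N9 cells was measured on 4 Affymetrix arrays. The authors deposited log2 values, 1 per probe set and array; the submitters' processing notes name RMA and Affymetrix Expression Console (version 1.2.1.20). RMA removes any change common to most genes. Precision is limited by the number of arrays.

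Of 41345 probe sets, 23521 had 1 gene symbol in the platform annotation, 1814 had several and 16010 were not listed. Where a gene had several, the probe set with the highest mean was taken. The tests were limma 3.58.1 in R 4.3.3 (lmFit, eBayes), 2 nimodipine arrays against 2 vehicle arrays, across all 22180 genes with Benjamini-Hochberg adjustment and a threshold of 0.05, and a fit of 3 groups as an alternative. Because the nimodipine group mixes doses, its spread contains any effect of dose. A single dose was described by its difference from the vehicle mean. The fits were tested on simulated data, with planted changes larger than any difference in the list. How they perform at the sizes seen here was thus not tested.

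The genes of the list, the further pathway genes and the rules were chosen with earlier results of these data known. Values on every array are given for genes of the list with a difference of 0.5 or more at either dose, for Tfeb and Tfe3 and for others that a comparison rests on; of each further list, up to 4 genes with the largest difference at 10 µM are named. Ulk1, Wipi1, Ctsd and other members shown outside that size were picked after their values were seen. Promoter windows are those of RefSeq (GRCm38.p6), matched by symbol; 28 of the 35 genes had one.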

Additional observations from a re-analysis of the deposited data

Results flagged for a closer look

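For 8 of the 35 genes the doses lay on opposite sides of both vehicle arrays, beside 18.9% of all genes, and the difference was not tested for the 8 as a group. In the fit of 3 groups, limma called none of them between the doses, their adjusted p-values being 0.155 or more. As 20 µM minus 10 µM on the log2 scale, the difference was -0.73 for Ctsd, -0.67 for Atg12, -0.55 for Map1lc3a, -0.23 for Becn1, -0.17 for Gabarapl1 and -0.13 for Atp6v0d1. It was 0.41 for Ctss and 0.13 for Lamp1. Ctsd and Map1lc3a had vehicle arrays that differed by 0.02 and 0.01, and those of Gabarapl1 and Atp6v0d1 differed by 0.001 and 0.02. For these genes nearly any value at a dose lay outside the vehicle pair, and the cause was not tested.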

How the results depend on the processing

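The alternatives were averaging the probe sets of a gene, leaving out dim probe sets, equal array medians, cyclic loess, other variance models, dose as a number, a threshold of 0.1, all probe sets, other sizes of difference, and leaving out each array. Of 192 values computed under them, 185 were counted as unchanged. A difference was so counted if it moved by less than the SD of its vehicle pair. The limit was 0.05 for a median, and a count had to stay equal or close. The rule ignored the side: the median of hydrolases at 10 µM was 0.01, and -0.04 with cyclic loess. Since all 35 genes had 1 probe set that was not dim, the first 2 alternatives could not move their differences. Leaving out 1 vehicle array could not move a gene's difference past that SD. The differences of 1 or more, of Sqstm1 and Bnip3 at 10 µM, kept their sign. The number of genes of the list that limma called for nimodipine against vehicle was 0 to 2 with 1 array left out; the 2, Sqstm1 and Bnip3, appeared without the 20 µM array. At 10 µM the number past a difference of 1 was 2 to 3 with 1 vehicle array left out, Cd63 being the third without vehicle 1, and 5 at a difference of 0.5. The median of core autophagy factors at 10 µM was -0.0515 without vehicle 1 and 0.0114 without vehicle 2, and that of membrane proteins at 20 µM was 0.118 and 0.0396. Of the 2 genes past 1 between the doses, the contrast in the fit of 3 groups called 0. No paired analysis was possible because each dose had 1 array and the labels tie no vehicle array to a dose. Only vehicle pairs, the gene's own and those of all genes pooled by limma, set the spread of each dose's comparison, so small differences cannot be resolved.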
